A study of Mus musculus with 6 samples.

Results

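Spp1 encodes osteopontin, a secreted phosphoprotein, and Cd44, Itga4, Itgb1, Itgav and Itgb3 encode the surface proteins that bind it. These 6 genes, 1 ligand and 5 receptor genes, were taken by name from the 37315 genes of the abundance table. Of the 19402 genes of the allele table, 5 are among them, and Itgb1 was not analysed by allele here. Spp1 was chosen by a measured value, the difference of its maternal share between the lines Abl.3 and Abl.4, so its allelic values between lines and its abundance in that pair are given as a description, with no test. The receptors were added as its binding partners, not for a value.

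RNA was sequenced from 3 clonal lines of immortalised mouse B cells, Abl.2 and Abl.4 from females and Abl.3 from a male. All lines carry 1 genome of 129S1/SvImJ and 1 of CAST/EiJ, which allows the 2 parental copies of a gene to be counted apart at sequence differences. Every library came from cells in medium with 1% DMSO, collected at day 2 as live cells from a density gradient; no treated cells were compared. Each line is 1 clone with 2 libraries that, by the labels, repeat the library preparation. Each p-value below therefore measures a difference against the spread of library preparation and counting, and line and clone cannot be told apart, nor sex in a comparison with Abl.3. The series title concerns monoallelic expression and DNA methylation as a regulator of allelic levels, and the question addressed here is how the ligand and its receptors differ between clones in total output and in the output of each parental copy.

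Osteopontin is made by bone cells, macrophages and activated lymphocytes, and in the bone marrow it lies in the matrix near the bone surface. It carries an RGD integrin-binding motif used by the integrin of the subunits encoded by Itgav and Itgb3, and thrombin cleavage exposes a neighbouring motif bound by the integrin of Itga4 and Itgb1. CD44 is the hyaluronan receptor and also binds osteopontin. Integrins work only as pairs of an alpha and a beta subunit, so a low level of 1 subunit limits the pair.

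Spp1 (ENSMUSG00000029304) lies on chromosome 5, 104435118 to 104441050, on the plus strand of GRCm38. Cd44 (ENSMUSG00000005087) lies on chromosome 2, 102811141 to 102901665, on the minus strand. Itga4 (ENSMUSG00000027009) and Itgav (ENSMUSG00000027087) are also on chromosome 2, at 79255426 to 79333123 and 83724397 to 83806916, both on the plus strand. Itgb1 (ENSMUSG00000025809) is on chromosome 8, 128685654 to 128733200, and Itgb3 (ENSMUSG00000020689) on chromosome 11, 104608000 to 104670476, both on the plus strand. All 6 are protein-coding genes whose start in the files equals that of GENCODE release M21. Spp1 overlaps Gm42793, Cd44 overlaps Gm23731, Itga4 overlaps Cerkl, and Itgav overlaps Dnmt3l-ps1 and Gm13684; the sources used here do not state whether counting used the strand, so reads in these overlaps are uncertain.

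The promoters of 3 of these genes are shown because the genes differ in promoter content of CpG, the dinucleotide that carries DNA methylation. They come from the RefSeq promoter table of build GRCm38.p6, in which 5 of the 6 genes were matched; Itgb3 was not. Each runs 5′ to 3′ from 250 bases before to 50 bases after the annotated start, with every CpG in capitals. Of 2 starts listed for Spp1, the one used lies 7 bases from the GENCODE start.

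Spp1, chr5:104434861-104435160, plus strand: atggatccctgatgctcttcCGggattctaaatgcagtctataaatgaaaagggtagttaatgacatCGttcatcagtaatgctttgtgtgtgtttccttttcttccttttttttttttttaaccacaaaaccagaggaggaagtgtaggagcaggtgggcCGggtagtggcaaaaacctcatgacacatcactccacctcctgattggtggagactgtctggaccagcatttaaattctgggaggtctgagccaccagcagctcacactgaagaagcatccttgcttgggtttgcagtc

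Cd44, chr2:102901616-102901915, minus strand: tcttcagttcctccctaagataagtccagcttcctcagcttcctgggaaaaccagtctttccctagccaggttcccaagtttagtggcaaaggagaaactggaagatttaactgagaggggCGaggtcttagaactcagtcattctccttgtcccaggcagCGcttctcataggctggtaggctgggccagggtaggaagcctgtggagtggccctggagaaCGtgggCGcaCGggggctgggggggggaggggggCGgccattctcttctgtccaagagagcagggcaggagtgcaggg

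Itgb1, chr8:128685404-128685703, plus strand: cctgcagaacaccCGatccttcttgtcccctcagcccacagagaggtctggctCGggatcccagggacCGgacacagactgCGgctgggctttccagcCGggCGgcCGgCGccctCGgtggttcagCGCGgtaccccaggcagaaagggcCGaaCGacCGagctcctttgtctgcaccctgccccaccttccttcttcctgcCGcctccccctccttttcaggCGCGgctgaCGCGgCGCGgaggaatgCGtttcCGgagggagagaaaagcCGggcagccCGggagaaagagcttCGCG

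The Spp1 promoter held 3 CpG and 45.3% G and C, and 23.3% of the 32851 promoters in the table held fewer CpG. The median promoter held 7 CpG and 52.7% G and C. Cd44 had 6 CpG, Itga4 10, Itgav 24 and Itgb1 27, with more CpG than 43.6%, 56.5%, 80.0% and 84.5% of promoters in that order. Spp1 thus had the fewest CpG of the 5 promoters and the integrin genes Itgb1 and Itgav the most. Both strands were searched for 5 short motifs of factors known at the Spp1 promoter. Spp1 had 1 match to the RUNX letters ACCACA, whose first base is 128 bases before the start, and 16.8% of promoters hold those letters. It had 2 matches to the ETS letters AGGAAG, at 148 and 112 bases before the start, and 35.4% of promoters hold at least 1. These matches did not overlap. No match was found in the Spp1 window to GGGCGG (SP1, in 35.7% of promoters), TGANTCA (AP-1, 7.8%) or CACGTG (E-box, 7.2%). A match describes letters only. DNA methylation was not analysed here.

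In all 3 lines markers of the B-lineage identity given by the labels were present. Of 12 B-lineage markers, 11 were at 1 TPM or more in Abl.2 and Abl.4 and 12 in Abl.3. TPM, the unit of abundance here, scales a level to gene length and library total. The exception was Ms4a1, which encodes CD20. The summed B-lineage level ranged from 13039 to 14600 TPM over the libraries, and Igll1, a surrogate light chain gene of pre-B cells, was the highest marker in each line, at 3743 to 4768 TPM on average. Single markers did differ between lines by limma, at an adjusted p below 0.05. Of the 12, 7 were higher and 2 lower for Abl.2 over Abl.3, beside 25.9% and 14.0% of all genes. The counts were 3 and 2 for Abl.2 over Abl.4 (15.0% and 18.4%) and 4 and 6 for Abl.3 over Abl.4 (11.3% and 26.8%). On summed allelic counts by edgeR they were 4 and 4, 1 and 4, and 3 and 4. Ms4a1, at 0.15, 6.14 and 0.365 TPM in Abl.2, Abl.3 and Abl.4, is among the limma calls in both pairs with Abl.3. It met the mean of 1 TPM needed for that test through Abl.3 alone, so it had to differ in order to be tested. Allelic counts per library ranged from 18362319 to 26881211.

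Spp1 was the most abundant of the 6 genes in every library. In the libraries of Abl.2 it was at 382.6 and 409.0 TPM, in those of Abl.3 at 61.5 and 55.6 TPM, and in those of Abl.4 at 103.3 and 98.2 TPM. The lines did not overlap, and Abl.2 stood far above both others. The means were 395.8 ± 18.6, 58.5 ± 4.17 and 100.8 ± 3.61 TPM in Abl.2, Abl.3 and Abl.4 (SD, n = 2). Ranked by abundance, Spp1 was gene 459 and 415 in the libraries of Abl.2, 1987 and 2054 in those of Abl.4, and 2981 and 3153 in those of Abl.3.

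Against Abl.3, Spp1 in Abl.2 was 6.77-fold higher in mean TPM, a difference of 2.74 on the log2(TPM + 1) scale (SE 0.08, adjusted p = 5.96e-06 by limma with Benjamini-Hochberg adjustment over 11003 genes). Of those genes, 39.8% were called in this pair at an adjusted p below 0.05. Against Abl.4 it was 3.93-fold higher, a log2 difference of 1.96 (SE 0.08, adjusted p = 2.00e-05 by limma), in a pair where 33.5% of genes were called. Abl.4 exceeded Abl.3 by 1.72-fold, which is given without a test, and 38.1% of genes were called in that pair. Both comparisons with Abl.2 share its libraries.

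**Figure D1:**
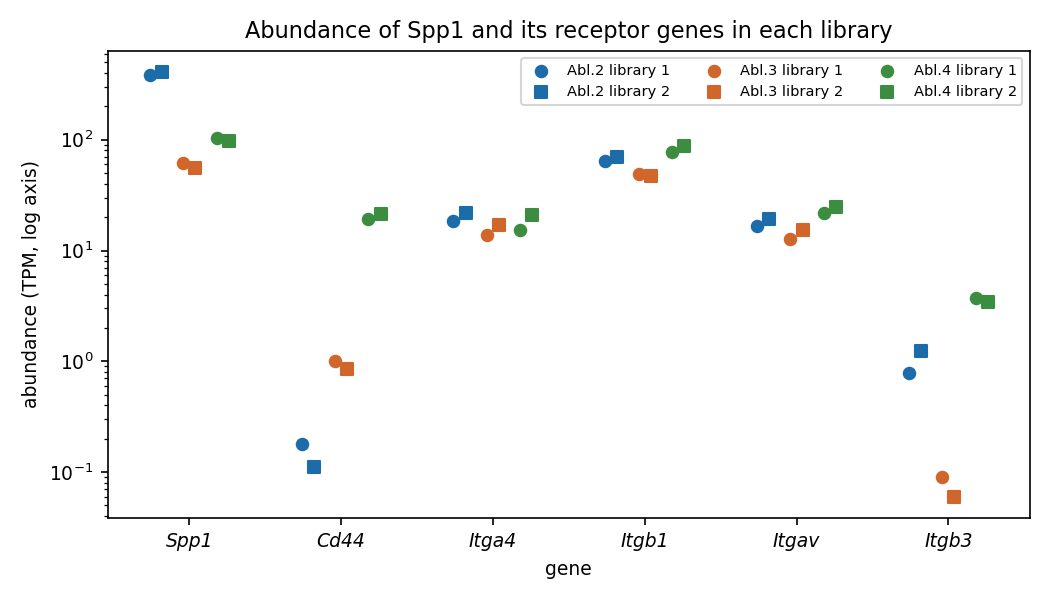
Abundance in TPM on a log axis (y) of Spp1 and the 5 receptor genes (x); each point is 1 library, coloured by line. Spp1 is highest in Abl.2, while Cd44 and Itgb3 are highest in Abl.4 and at most 1.25 TPM in the other lines.

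The abundance values are of whole cultures, in which fewer cells with a transcript and less RNA per cell cannot be told apart. Markers of other osteopontin-producing or osteopontin-binding cells were therefore read beside Spp1. The 11 macrophage markers summed to 160.1 to 196.2 TPM in Abl.2, 79.9 to 102.5 in Abl.3 and 74.2 to 86.1 in Abl.4. Lyz2, which encodes lysozyme, made up nearly all of this, at 157.6 and 192.8 TPM in Abl.2, and Adgre1, Cd14, Mertk, C1qa and C1qc were listed at 0 in every library. Of the tested macrophage markers, Lyz2 was higher in Abl.2 than in Abl.3 (175.2 against 85.1 TPM on average, log2 difference 1.04, SE 0.16, adjusted p = 0.00343 by limma) and Cd68 was lower (2.84 against 5.97 TPM, log2 difference -0.87, adjusted p = 0.0105 by limma). In Abl.2 against Abl.4 Lyz2 was also higher (log2 difference 1.18, adjusted p = 0.00233 by limma), and Cd68 was not called (-0.07, adjusted p = 0.787). Cd68 lost its call in the first pair without the first library of Abl.2 (adjusted p = 0.0659) or either of Abl.3 (0.0549 and 0.0613), while Lyz2 kept both calls in every alternative in which it was tested. Lyz2 thus moves with Spp1 in both pairs; the part of these markers in the Spp1 difference was not tested. Of the 8 stromal and osteoblast markers, Alpl alone reached 1 TPM, with Ibsp, Col1a2, Col3a1 and Pdgfra listed at 0 in every library, and their sum was lowest in Abl.2, at 154.6 to 164.1 TPM. The 7 megakaryocyte and platelet markers, cells in which Itgb3 is abundant, summed to at most 2.44 TPM in any library.

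The maternal copy of Spp1 gave most of the counts in Abl.3 and the paternal copy in Abl.4. The maternal share is the maternal counts over the counts of both copies, and 0.5 means equal output. For Spp1 it was 0.563 and 0.569 in the libraries of Abl.2, 0.789 and 0.790 in those of Abl.3, and 0.153 in both of Abl.4. The lines did not overlap, and libraries of a line lay far closer to each other than to any other line; for Abl.3 and Abl.4 this is the property that picked the gene. The shares rest on 34171 and 43814 allelic counts in Abl.2, 5112 and 4426 in Abl.3, and 8596 and 8069 in Abl.4. The widest of the 95% Wilson intervals, that of the second library of Abl.3, ran from 0.778 to 0.802; these intervals cover counting error only.

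The share of Spp1 in Abl.2 did not enter the rule and was tested. Its log2 allele ratio was 0.38 (SE 0.03, adjusted p = 2.48e-06 by edgeR's quasi-likelihood test, Benjamini-Hochberg adjusted over 8702 genes), a mild maternal excess seen in both libraries. Measured against the allele totals of each library, which hold more maternal than paternal counts in Abl.2, the ratio was 0.22 (adjusted p = 1.80e-04 by edgeR). An imbalance was called in 49.1% of those genes in Abl.2. In the authors' deposited table the maternal fraction of Spp1 is 0.57 with limits of 0.55 and 0.58 in Abl.2, 0.79 (0.75 to 0.83) in Abl.3 and 0.15 (0.12 to 0.18) in Abl.4. Among 8480 autosomal genes, 31 had a larger absolute share difference between Abl.3 and Abl.4 than the 0.637 of Spp1. Of the 84 genes with a difference of at least 0.5, Spp1 was second by mean TPM.

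**Figure D2:**
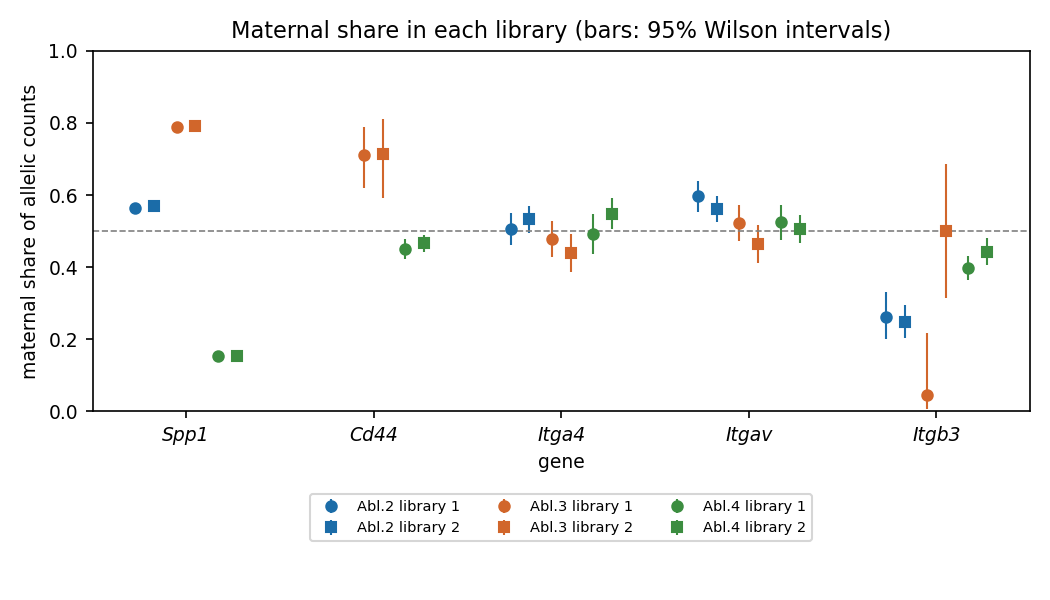
Maternal share of allelic counts (y) of the 5 genes with allele counts (x); each point is 1 library and bars are 95% Wilson intervals. Spp1 takes 3 distinct shares, Itga4 and Itgav stay near 0.5, and the 2 libraries of Abl.3 disagree for Itgb3.

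Multiplying the TPM of a library by its share gives the output of each copy. The maternal copy of Spp1 gave 215.5 and 232.6 TPM in Abl.2, 48.5 and 43.9 TPM in Abl.3, and 15.8 and 15.0 TPM in Abl.4. The paternal copy gave 167.1 and 176.4 TPM in Abl.2, 13.0 and 11.7 TPM in Abl.3, and 87.5 and 83.2 TPM in Abl.4. Both copies were highest in Abl.2, and the order of the other lines differed by copy, with the maternal copy lowest in Abl.4 and the paternal copy lowest in Abl.3. From Abl.4 to Abl.2 the maternal output was 14.6-fold higher and the paternal output 2.01-fold. From Abl.3 to Abl.2 the maternal output was 4.85-fold higher and the paternal output 13.95-fold. Between Abl.3 and Abl.4 the maternal copy was 3.00-fold higher in Abl.3 and the paternal copy 6.93-fold higher in Abl.4, against a total that differed by 1.72-fold. These outputs are descriptions without a test, and those of Abl.3 and Abl.4 contain the share that picked the gene.

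**Figure D3:**
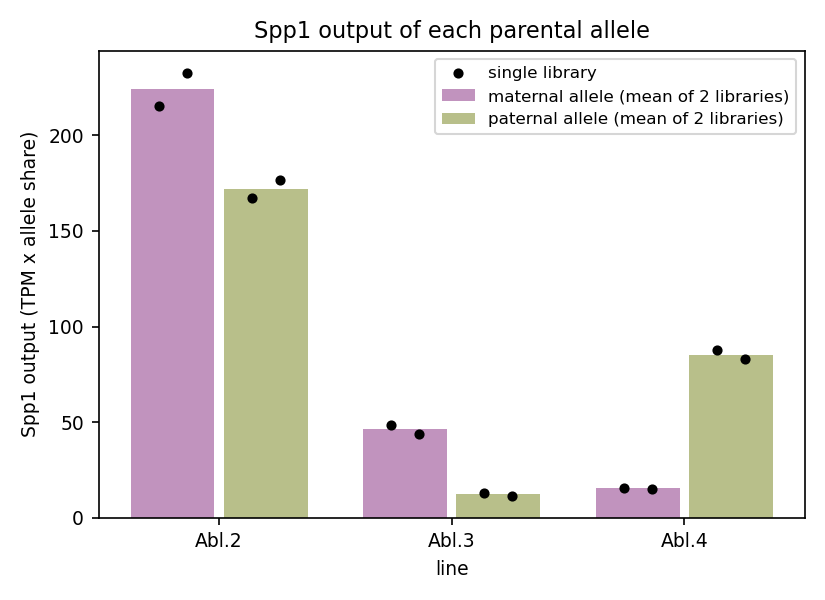
Output of each parental copy of Spp1, as TPM times allele share (y), in the 3 lines (x); bars are means of 2 libraries and dots single libraries. Both copies are highest in Abl.2, the paternal copy is lowest in Abl.3 and the maternal copy lowest in Abl.4.

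Spp1 belongs to a cluster of genes for secreted phosphoproteins of bone and teeth, which share its stretch of chromosome 5. The other 4 members, Ibsp, Dmp1, Dspp and Mepe, lie 109.8 to 264.4 kb away and were listed at 0 TPM in every library. Distances between genes, here and below, run between their lower coordinates. Pkd2, 24.3 kb downstream, and Sparcl1, 356.0 kb upstream, were also listed at 0. The nearest gene with enough counts on one side was Nudt9, 388.8 kb upstream, with mean maternal shares of 0.521, 0.491 and 0.498 in Abl.2, Abl.3 and Abl.4. BC005561, 73.2 kb downstream, had shares of 0.00476, 0.402 and 0.438. It was expressed nearly only from the paternal copy in Abl.2, the line in which Spp1 was closest to equal. Its allele ratio differed between Abl.2 and each other line (adjusted p = 3.96e-05 and 3.43e-05 by edgeR) and was not called different between Abl.3 and Abl.4 (adjusted p = 0.838), the pair in which Spp1 differs most. Counts of BC005561 were 88 and 105 in Abl.2. Over chromosome 5 the median maternal share was 0.490, 0.450 and 0.502, so the shares of Spp1 were above 82.8% and 96.4% of the chromosome's genes in Abl.2 and Abl.3 and above 2.38% in Abl.4.

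**Figure D4:**
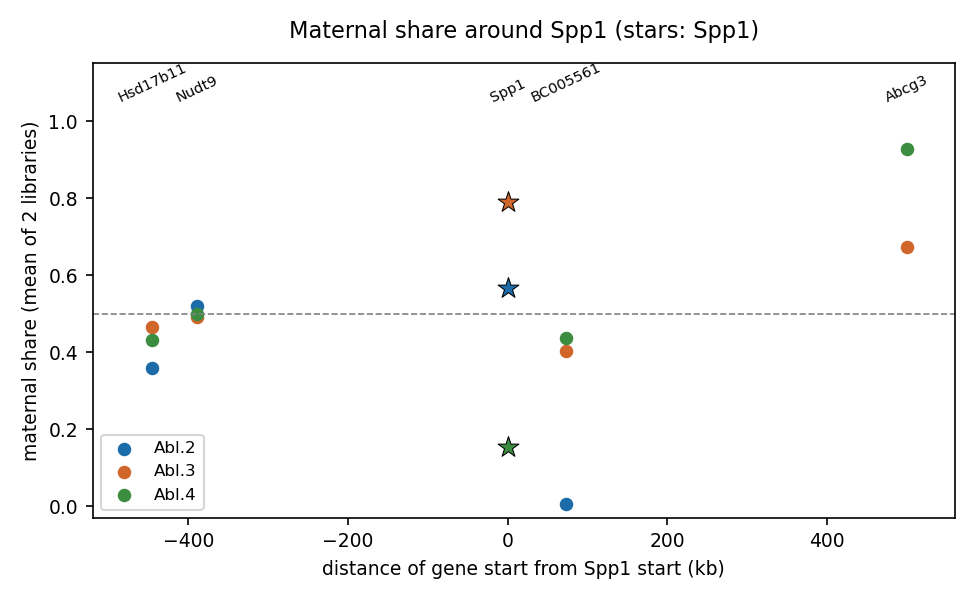
Mean maternal share of 2 libraries (y) against distance of the gene's lower coordinate from that of Spp1 in kb (x), coloured by line. Stars are Spp1. Nudt9 lies near 0.5 in all lines, BC005561 is near 0 in Abl.2, and Abcg3 had too few counts in Abl.2 to be shown.

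The genes whose pattern came closest to that of Spp1 were named by rule, over 6 libraries of only 3 lines, so that any gene with the same order and spacing of lines scores high. By Pearson correlation of log2(TPM + 1) over 11001 other genes they were Tec (0.9996), Gm12463 (0.9992), Sipa1l1 (0.998), Slc28a2 (0.998) and Pde4b (0.998). Tec, a cytoplasmic tyrosine kinase, was at 44.0 to 45.1 TPM in Abl.2, 20.1 to 21.4 in Abl.3 and 25.6 in both libraries of Abl.4. By the root mean square difference in maternal share they were Rnf227 (0.0538), Rrad (0.0806), P2rx7 (0.0833), Adcy3 (0.101) and Plekhg3 (0.101), out of 8701 other genes. P2rx7, an ATP-gated channel gene that also lies on chromosome 5, had shares of 0.430 to 0.535 in Abl.2, 0.870 to 0.904 in Abl.3 and 0.123 to 0.189 in Abl.4. No gene appeared in both lists of 5.

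By fold between lines, Cd44 was the receptor gene with the widest range. It was at 0.18 and 0.11 TPM in Abl.2, 1.01 and 0.86 TPM in Abl.3, and 19.3 and 21.5 TPM in Abl.4. The lines did not overlap, and Abl.4 was 21.8-fold above Abl.3 in mean TPM. On the log2(TPM + 1) scale, where the changes of lowly expressed genes come out too small, the difference of Abl.3 from Abl.4 was -3.47 (SE 0.16, adjusted p = 2.85e-05 by limma) and that of Abl.2 from Abl.4 was -4.22 (SE 0.16, adjusted p = 1.33e-05). The difference between Abl.2 and Abl.3 was -0.76 (SE 0.16, adjusted p = 0.00997 by limma), and it lost its call without the second library of Abl.2 (adjusted p = 0.0547) or the first of Abl.3 (0.0527). In mean TPM, Abl.3 was 6.45-fold above Abl.2. On summed allelic counts, which were 9 and 6 in Abl.2, the log2 difference of that pair was -3.83 (adjusted p = 1.73e-05 by edgeR), and those of Abl.3 and Abl.2 from Abl.4 were -4.02 (4.72e-07) and -7.85 (3.62e-08). Cd44 met the mean of 1 TPM needed for the test through Abl.4 alone, so it had to differ in order to be tested. The 8 genes listed as markers of T and NK cells, which are rich in CD44, summed to 293.7 to 297.9 TPM in Abl.4. In the other lines they summed to 7.03 to 17.4 TPM. Cd2 made up nearly all of the sum in Abl.4, at 288.2 and 291.0 TPM, so that sum reflects Cd2 and not the list. Cd3g, Trbc2 and Ncr1 were listed at 0 in every library, and Cd3d, Cd3e and Cd8a were at 0.07 TPM or less. Klrb1c, the other expressed marker of that list, was lower in Abl.4 than in Abl.2 (6.16 against 15.1 TPM on average, log2 difference of Abl.2 from Abl.4 1.18, adjusted p = 0.00257 by limma). Against Abl.3, at 0.91 TPM, it was higher in Abl.4, as Cd44 was (log2 difference of Abl.3 from Abl.4 -1.90, adjusted p = 3.88e-04 by limma). The part of such cells in the Cd44 level was not tested.

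In the allele table Cd44 had 9 and 6 counts in Abl.2, all paternal and under the minimum of 20 per library, so no share is given there and the gene was not part of the test over 6 libraries. Its maternal share was 0.712 and 0.714 in Abl.3, from 104 and 63 counts, and 0.449 and 0.466 in Abl.4, from 1251 and 1595. The Wilson intervals of Abl.3, 0.618 to 0.790 and 0.593 to 0.811, lay above those of Abl.4, which reached 0.490 at most. A fit of the 4 libraries of Abl.3 and Abl.4, added after the data were seen, tested 8889 genes. In it the allele ratio of Cd44 differed by 1.55 on the log2 scale (SE 0.27, adjusted p = 0.0019 by edgeR), in a comparison with 15.8% of genes called. Abl.3 had a maternal excess (log2 ratio 1.31, SE 0.23, adjusted p = 9.61e-04 by edgeR, with 43.4% called), and Abl.4 had a ratio of -0.25 (SE 0.13, adjusted p = 0.175, with 38.3% called). The authors' deposited table gives 0.71 in Abl.3 with limits of 0.36 and 0.97, an interval that includes equal output, and 0.46 (0.36 to 0.56) in Abl.4. Per copy, Abl.4 gave 9.33 ± 0.94 maternal and 11.1 ± 0.590 paternal TPM (SD, n = 2), and Abl.3 gave 0.667 ± 0.074 and 0.269 ± 0.032 TPM. The neighbours Pdhx and Apip, which start 209.9 and 262.5 kb from Cd44, had shares of 0.521 and 0.543 in Abl.3 and 0.462 and 0.578 in Abl.4.

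Itgb3, the beta subunit of the classical RGD-binding osteopontin receptor, was low throughout. Its level was 0.79 and 1.25 TPM in Abl.2, 0.09 and 0.06 TPM in Abl.3, and 3.73 and 3.43 TPM in Abl.4. The lines did not overlap, with Abl.4 highest and Abl.3 near 0. On the log2(TPM + 1) scale Abl.3 differed from Abl.4 by -2.09 (SE 0.20, adjusted p = 5.14e-04 by limma), and Abl.2 from Abl.4 by -1.19 (SE 0.20, adjusted p = 0.00475). Abl.2 exceeded Abl.3 by 0.90 (SE 0.20, adjusted p = 0.0121 by limma), a call that was lost without the second library of Abl.2 (0.0689) or the second of Abl.3 (0.0588). In mean TPM, Abl.2 was 13.6-fold above Abl.3. Summed allelic counts, which need no added 1 TPM and were 22 and 24 in Abl.3, gave larger log2 differences, of 3.04 for Abl.2 over Abl.3 (adjusted p = 1.98e-05 by edgeR), -4.91 for Abl.3 over Abl.4 (7.08e-07) and -1.87 for Abl.2 over Abl.4 (1.06e-04). Like Cd44, Itgb3 met the mean of 1 TPM because of its level in Abl.4.

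The paternal copy of Itgb3 gave the larger part of the counts in Abl.2. Its maternal share was 0.262 and 0.247 there, from 172 and 336 counts, and the log2 allele ratio was -1.56 (SE 0.33, adjusted p = 0.00245 by edgeR). In Abl.4 the share was 0.397 and 0.443, from 786 and 675 counts, with no call (ratio -0.47, SE 0.28, adjusted p = 0.218). In Abl.3 the libraries had 22 and 24 counts, just above the minimum, and shares of 0.0455 and 0.5, too far apart for a statement on that line. The ratio in Abl.3 was -1.35 (adjusted p = 0.127 by edgeR) with both libraries and -4.25 (adjusted p = 0.00476) without the second. Itgb3 was not called in any pair of lines. Of all genes tested, 28.4% were called for Abl.2 against Abl.3, 22.3% for Abl.2 against Abl.4 and 16.5% for Abl.3 against Abl.4. The libraries of Abl.3 decide part of this, since the difference between Abl.2 and Abl.4 (log2 -1.09, adjusted p = 0.115) passed the test when either was left out (adjusted p = 0.0141 and 0.0138 by edgeR). Without the second library of Abl.3, its ratio against Abl.4 became -3.78 (adjusted p = 0.0236 by edgeR), and the ratio within Abl.4 passed without either library of Abl.3 (adjusted p = 0.0493 and 0.0495). The nearest tested gene was Myl4, 57.3 kb away between lower coordinates. Its share was 0.463 in Abl.2, where Itgb3 was at 0.254 on average.

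Itgav, the alpha subunit that pairs with Itgb3, Itgb1 and other beta subunits, was present in every line. It was at 16.5 and 19.3 TPM in Abl.2, 12.7 and 15.2 TPM in Abl.3, and 21.7 and 24.8 TPM in Abl.4. The lines did not overlap, but the steps between them were close to the spread of libraries. Abl.3 differed from Abl.4 by -0.70 on the log2(TPM + 1) scale (SE 0.14, adjusted p = 0.00935 by limma). That call was lost on summed allelic counts (log2 -0.40, adjusted p = 0.145 by edgeR), without the first library of Abl.3 (0.0624) and without the second of Abl.4 (0.0551). Against Abl.2, neither Abl.3 (0.34, adjusted p = 0.0963) nor Abl.4 (-0.36, adjusted p = 0.0879) was called, while both passed with the replicate number as a block (adjusted p = 0.0226 and 0.0201 by limma). On summed allelic counts neither was called, at 0.32 (adjusted p = 0.221 by edgeR) and -0.08 (0.789). Itgav exceeded Itgb3 in TPM by 15.4 to 20.9 times in Abl.2, 5.81 to 7.23 times in Abl.4 and 141.3 to 252.7 times in Abl.3.

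The copies of Itgav were close to equal. Its maternal share was 0.597 and 0.562 in Abl.2, 0.523 and 0.464 in Abl.3, and 0.524 and 0.506 in Abl.4, from 349 to 706 counts. A maternal excess was called in Abl.2 (log2 ratio 0.46, SE 0.15, adjusted p = 0.0308 by edgeR), but not by DESeq2 (adjusted p = 0.116), nor when equal output was defined by the allele totals of a library (0.131), nor with either library of Abl.2 left out (0.288 and 0.107). No difference between lines was called, with adjusted p-values from 0.149 to 0.818. The nearest tested gene, Zc3h15, 80.0 kb away between lower coordinates, had shares of 0.491 to 0.527 in the 3 lines.

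Itga4, the alpha subunit of the integrin VLA-4 that anchors B-cell precursors to stroma, was the steadiest of the 6 genes. It was at 18.6 and 21.7 TPM in Abl.2, 13.8 and 17.1 TPM in Abl.3, and 15.3 and 21.1 TPM in Abl.4. Abl.4 overlapped both other lines, while Abl.2 lay above Abl.3. No abundance difference was called, with log2 differences of 0.37 (adjusted p = 0.16), 0.15 (0.553) and -0.21 (0.397) for Abl.2 over Abl.3, Abl.2 over Abl.4 and Abl.3 over Abl.4 by limma (SE 0.18). With the replicate number as a block, Abl.2 over Abl.3 was called (adjusted p = 0.0276). On summed allelic counts that difference was 0.26 (adjusted p = 0.356 by edgeR), and after quantile normalisation 0.18 (0.461 by limma). Its maternal share ranged from 0.439 to 0.548 over the 6 libraries, from 303 to 657 counts each. Neither an imbalance (45.1% of genes were called in Abl.3 and 39.9% in Abl.4) nor a difference between lines was called for it, with adjusted p-values from 0.29 to 0.989.

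Itgb1, the beta subunit shared by VLA-4 and many other integrins, was the most abundant receptor gene. It was at 64.1 and 69.3 TPM in Abl.2, 48.7 and 46.9 TPM in Abl.3, and 77.7 and 87.8 TPM in Abl.4. The lines did not overlap, with Abl.3 lowest and Abl.4 highest. Abl.3 differed from Abl.4 by -0.78 on the log2(TPM + 1) scale (SE 0.09, adjusted p = 0.00138 by limma). Abl.2 exceeded Abl.3 by 0.47 (SE 0.09, adjusted p = 0.00859 by limma), which was lost without the second library of Abl.2 (0.0639) or the second of Abl.3 (0.058). Abl.2 differed from Abl.4 by -0.31 (SE 0.09, adjusted p = 0.0466), a call that was lost with no filter on low values (0.0636) and in 5 of 6 fits that left out a library. Itgb1 exceeded Itga4 by 2.74 to 5.09 times in TPM in every library.

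**Figure D5:**
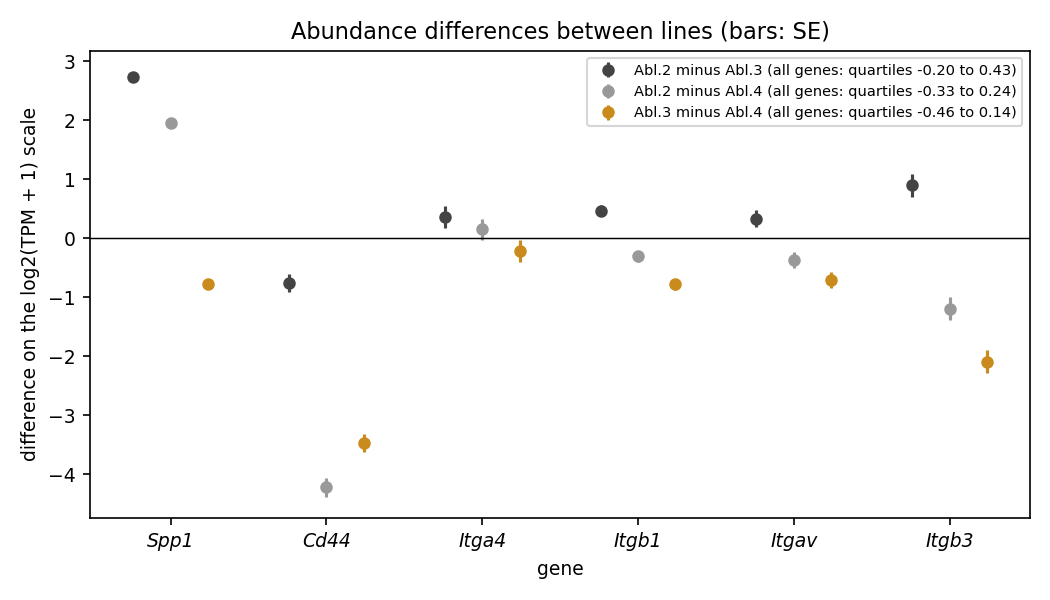
Differences on the log2(TPM + 1) scale (y) of the 6 genes (x) for the 3 pairs of lines; bars are standard errors, and Spp1 between Abl.3 and Abl.4 has none because it was not tested. Spp1 is the gene with the largest excess in Abl.2, and Cd44 and Itgb3 have the largest deficits against Abl.4.

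Spp1 was highest in Abl.2, and so was the mean of Itga4, which was not called in any pair. Cd44, Itgb3, Itgav and Itgb1 each had their highest mean in Abl.4. Summed over the 5 receptor genes, Abl.2 had 100.2 and 111.7 TPM, Abl.3 had 76.3 and 80.2 TPM, and Abl.4 had 137.7 and 158.6 TPM. Spp1 was 3.82 and 3.66 times that sum in Abl.2, 0.806 and 0.693 times in Abl.3, and 0.750 and 0.619 times in Abl.4. The ratios of Abl.2 lay far from those of Abl.3 and Abl.4, which overlapped. The level of the median gene also shifted between lines, by 0.10, -0.03 and -0.15 on the log2 scale for Abl.2 over Abl.3, Abl.2 over Abl.4 and Abl.3 over Abl.4. The first-named line was higher in 65.0%, 44.9% and 29.8% of all calls in these pairs, and in 51.4%, 52.8% and 52.0% after quantile normalisation. On that scale the calls and directions of the 6 genes stayed as given above, except that the uncalled difference of Itga4 between Abl.3 and Abl.4 changed sign, to 0.05.

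Other integrin subunits that bind osteopontin form a list of 6, of which 3 passed the filter on low values. Itga9, whose integrin binds the thrombin-cleaved form, was at 3.15 and 3.28 TPM in Abl.4 and at most 0.03 TPM elsewhere (log2 difference of Abl.3 from Abl.4 -2.08, SE 0.19, adjusted p = 4.40e-04 by limma). Without either library of Abl.4, Itga9 fell under the filter and was not tested. Itgb5, a partner of Itgav, was at 3.28 and 4.09 TPM in Abl.2, 0.37 and 1.08 in Abl.3, and 5.24 and 5.61 in Abl.4, and differed between Abl.3 and Abl.4 by -1.93 (SE 0.23, adjusted p = 0.00143 by limma). Both were thus highest in Abl.4, as were Cd44 and Itgb3, and both met the filter through the lines where they are high. Itgb7 was at 1.58 to 2.56 TPM with no call. Itga5, Itga8 and Itgb6 did not pass the filter, with at most 0.73 TPM in a library. Itgb5 was mostly maternal, with shares of 0.995, 0.830 and 0.936 in Abl.2, Abl.3 and Abl.4, and its allele ratio in Abl.2 differed from both other lines (adjusted p = 0.00208 and 0.0024 by edgeR). Its share in Abl.3 had an SD of 0.150 over 2 libraries, 1 of them with 29 counts, so that it was not tested at a minimum of 50 counts.

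Of 16 further integrin subunits, 5 passed the filter. Itgb2, the beta subunit of the leukocyte integrins, was at 23.8 ± 2.21, 46.6 ± 3.44 and 60.3 ± 8.77 TPM in Abl.2, Abl.3 and Abl.4 (SD, n = 2). Itga6, a laminin receptor subunit, was at 9.53, 10.8 and 30.6 TPM. Itgal, the partner of Itgb2 in LFA-1, was at 1.67, 18.5 and 4.96 TPM, and Itga1, a collagen receptor subunit, at 10.0, 3.40 and 3.38 TPM. Itgam, the alpha subunit of Mac-1, was at 0.43, 0.845 and 6.82 TPM and passed the filter only through Abl.4, where it is high, so that it had to differ. Each line was thus highest for at least 1 of the 5. For Abl.2 over Abl.3, 1 was called higher and 2 lower, where 25.9% of all genes tested were higher and 14.0% lower (median log2 -0.37, against 0.10 over all). For Abl.2 over Abl.4 the counts were 1 and 4, beside 15.0% and 18.4% (median -1.30 against -0.03). For Abl.3 over Abl.4 they were 1 and 2, beside 11.3% and 26.8% (median -0.36 against -0.15). On summed allelic counts, with 6 tested, the first pair had 1 higher and 3 lower calls (median -1.20), the second 1 and 3 (-1.40) and the third 1 and 2 (0.04).

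None of 4 genes of the bone phosphoprotein cluster, 10 osteopontin-modifying enzymes or 10 other ligands passed the filter. Among the enzymes the highest value in any library was 0.58 TPM, for Mmp12, a macrophage elastase that cleaves osteopontin, in Abl.2. Fam20c, the kinase that phosphorylates osteopontin, reached 0.02 TPM. The other ligands, including fibronectin (Fn1), vitronectin (Vtn) and the VLA-4 ligand Vcam1, were at 0.24 TPM or less. Spp1 was therefore the only gene of the ligands listed that passed the filter in these cultures.

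Integrin adaptors and kinases, which link the receptors to actin and to signalling, form a list of 23, of which 15 were tested. For Abl.2 over Abl.3, 7 were called higher and 2 lower, beside 25.9% and 14.0% of all genes (median log2 0.26, against 0.10 over all). These 9 calls became 5 without the second library of Abl.3. For Abl.2 over Abl.4 the counts were 4 and 3, beside 15.0% and 18.4% (0.01 against -0.03). For Abl.3 over Abl.4 they were 2 and 8, beside 11.3% and 26.8% (-0.37 against -0.15). On summed allelic counts these became 5 and 3, 3 and 5, and 1 and 7. The most abundant were Ilk, Fermt3, Parvg and Fyn. Ilk, integrin-linked kinase, was at 277.1, 283.7 and 305.3 TPM in Abl.2, Abl.3 and Abl.4, with no call. Fermt3, which encodes the blood-cell kindlin, averaged 241.1 ± 12.2 TPM (SD, n = 2) in Abl.2 and 184.5 ± 16.6 TPM in Abl.3. The Src-family kinase gene Fyn was at 177.1, 180.0 and 93.1 TPM and was lower in Abl.4 than in Abl.3 (log2 0.94, SE 0.08, adjusted p = 3.76e-04 by limma). Parvg, a parvin, was at 152.0, 189.0 and 205.9 TPM.

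Ptk2, which encodes focal adhesion kinase, had the widest allelic range in that list. Its maternal shares were 0.00186, 0.445 and 0.971 in Abl.2, Abl.3 and Abl.4. Its abundance was 6.01, 5.01 and 12.9 TPM in the same order. The log2 allele ratio of Abl.2 minus that of Abl.4 was -13.55 (SE 0.82, adjusted p = 2.55e-07 by edgeR). A share near 0 makes such a ratio depend on few maternal counts. Lyn, the main Src-family kinase of B cells, had shares of 0.999, 0.447 and 0.443, and Fyn of 0.354, 0.532 and 0.558. These values in Abl.2 were not particular to the kinases. On chromosome 4, which holds Lyn, the listed genes Alpl, Pax5, Runx3 and Jun had shares of 0.9948 to 0.9985 in Abl.2. On chromosome 10, which holds Fyn, Lims1, Prdm1 and Cd24a were at 0.335, 0.351 and 0.276 there, and Ank3 at 0.000483.

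The CD44-linked genes form a list of 8, of which 5 were tested. The ERM proteins that tie CD44 to actin were abundant, with Msn at 690.9, 445.6 and 548.9 TPM and Ezr at 323.2, 393.3 and 429.5 TPM in Abl.2, Abl.3 and Abl.4. Rdx was at 31.1, 28.3 and 48.1 TPM, and Hmmr, another hyaluronan-binding gene, at 35.2, 43.0 and 44.6 TPM. Ank3, an ankyrin gene and the fifth tested, was at 7.10, 0.37 and 4.45 TPM (log2 2.56, SE 0.15, adjusted p = 6.01e-05 for Abl.2 over Abl.3 by limma). For Abl.2 over Abl.3, 2 were called higher and 2 lower, beside 25.9% and 14.0% of all genes (median log2 0.13, and -0.02 after quantile normalisation). Without any 1 library of these lines, 2 calls were left of the 4. For Abl.2 over Abl.4, 2 were higher and 3 lower, beside 15.0% and 18.4% (median -0.34), and 3 and 1 were called without the first and the second library of Abl.4. Without the first or the second library of Abl.2, 0 were called by limma, with 3 and 5 at an unadjusted p below 0.05. For Abl.3 over Abl.4, 3 were called, all lower, beside 26.8% (median -0.30), and 1 without either library of Abl.3. Msn is on X and had maternal shares of 0.00114, 0.999 and 0.000647. Esrp1 and Esrp2, which set CD44 splicing, were at 0.29 TPM or less.

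Transcription factors known at the Spp1 promoter form a list of 13, of which 11 were tested. For Abl.2 over Abl.3, 5 were called, all higher, beside 25.9% of all genes (median log2 0.31, against 0.10 over all). For Abl.2 over Abl.4, 2 were higher and 2 lower, beside 15.0% and 18.4% (0.16 against -0.03). For Abl.3 over Abl.4, 6 were called, all lower, beside 26.8% (-0.34 against -0.15), and 3 without the second library of Abl.3. With the replicate block the calls against Abl.2 were 8 and 7. On summed allelic counts, with 10 tested, the higher and lower calls were 4 and 2, 3 and 4, and 1 and 4. After quantile normalisation, with 11 tested, they were 5 and 1, 4 and 2, and 0 and 4. The most abundant were Jun, Myc, Spi1 and Fos. Jun, a subunit of AP-1, was at 925.1 and 1204 TPM in Abl.2, 138.8 and 169.3 in Abl.3, and 344.8 and 396.5 in Abl.4, which is the order of Spp1. Jun in Abl.2 exceeded Abl.3 by 2.78 on the log2(TPM + 1) scale (SE 0.16, adjusted p = 5.53e-05 by limma) and Abl.4 by 1.51 (SE 0.16, adjusted p = 7.27e-04). Fos, its AP-1 partner, was at 51.6 ± 0.516, 48.6 ± 2.52 and 164.2 ± 18.0 TPM (SD, n = 2), highest in Abl.4. Myc, at 460.3 to 571.5 TPM on average, and Spi1, the gene of the ETS factor PU.1 at 93.1 to 113.3 TPM, were not called in any pair. Vdr, the vitamin D receptor, was picked out after its values were seen; it was at 31.6 TPM in Abl.2 and 1.96 and 1.87 TPM in the other lines (log2 3.46, SE 0.14, adjusted p = 1.37e-05 for Abl.2 over Abl.3 by limma).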

How the data were processed

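RNA-seq of 6 libraries was used. The authors deposited whole-number counts of maternal and paternal alleles at SNP positions within genes, TPM obtained with DESeq2, and a maternal fraction per line with confidence limits over averaged replicates, per the file headers. The submitters' processing notes name STAR 2.5.4a, SAMtools, GATK and DESeq2 and the builds GRCm38, GRCh37 and mm10, with no role. Per the labels' protocols, libraries were made with SMART-seq v4, which has no molecular identifiers, so intervals cover counting error only. Whether a read over several SNPs was counted once is not given in the sources used here. TPM keep no depth.

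Libraries were assigned to lines by title. The genes, lists and tests were chosen with earlier results of these data known. R 4.3.3 was used. The 8702 genes with at least 20 allelic counts per library entered edgeR 4.0.16 (quasi-likelihood, an intercept per library, an allele effect per line). The 11003 genes averaging 1 TPM or more entered limma 3.58.1 (trend) as log2(TPM + 1). P-values were adjusted by Benjamini-Hochberg over all genes tested, with a threshold of 0.05. Output per allele, neighbours within 500 kb and likeness were described without a test. Named genes were the members, up to 4 genes per list by mean TPM, list genes with an allelic difference of at least 0.2 in share, and neighbouring and most similar genes. Itgam, Ank3, Vdr, Ms4a1, and Fam20c and other list genes below 1 TPM were named outside this rule, after their values were seen. The scripts were tested on simulated data. The alternatives tried were minimums of 10 and 50 counts, DESeq2 1.42.0, allele totals as the null, TMM factors, pseudocounts of 0.1 and 0.5, other filters, quantile normalisation, summed allelic counts, a replicate block and leaving out each library.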

Additional observations from a re-analysis of the deposited data

Results flagged for a closer look

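The genes below stood out because the output of their parental copies differed between lines. Spp1 had a maternal share higher by 0.637 in Abl.3 than in Abl.4; all libraries of Abl.3 lay on the maternal side and all of Abl.4 on the paternal side, and this difference was not tested because it picked the gene. Cd44 differed by 0.255 in the same direction, by a test over the libraries of Abl.3 and Abl.4 that was added after the data were seen.

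Among the integrin subunits, the maternal share of Abl.3 minus that of Abl.4 was -0.276 for Itgal and -0.457 for Itgb4, which was below 0.4 TPM in every library. Among the adaptors and kinases, Abl.2 minus Abl.4 was -0.969 for Ptk2, -0.204 for Fyn and 0.555 for Lyn. Among the transcription factors, Abl.2 minus Abl.4 was 0.597 for Runx3 and 0.297 for Jun. Lyn, Runx3 and Jun lie on chromosome 4, as do Pax5 and Alpl, where Abl.2 minus Abl.3 was 0.536 and 0.542. On chromosome 10, which also holds Fyn, Abl.2 minus Abl.4 was -0.283 for Cd24a and -0.212 for Prdm1. The X genes Msn, with 0.998 for Abl.3 minus Abl.4, and Tfe3, with -0.997 for Abl.2 minus Abl.3, differed between the male and the female lines. Sdc1 differed by -0.455 between Abl.3 and Abl.4. All but Spp1 passed the edgeR test after Benjamini-Hochberg adjustment. Sdc1 lost its call without the second library of Abl.3 (adjusted p = 0.0941 by edgeR) and Itgb4 without the first of Abl.4 (0.0597), and neither had enough counts to be tested at a minimum of 50.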

How the results depend on the processing

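No test value of the 6 genes changed direction past its threshold. For Spp1, both abundance differences from Abl.2 and the imbalance in Abl.2 kept their call under every alternative run, as did the allelic difference of Cd44 between Abl.3 and Abl.4 (adjusted p from 1.22e-04 to 0.0306 by edgeR or DESeq2). Of all test values for the 6 genes under an alternative, these included, 439 kept their side of the threshold, 19 lost a call and 9 gained one; those that changed belong to Itga4, Itgav, Itgb1, Itgb3 and Cd44. Leaving out 1 library gave 2529 to 4565 abundance calls between Abl.2 and Abl.3 against 4382, 2040 to 3269 between Abl.2 and Abl.4 against 3682, and 2336 to 3659 between Abl.3 and Abl.4 against 4194; the fewest came without a library of the lines compared, where the lone library is assumed to vary like the others. Of the counts for gene lists, 649 stayed within 1.5 times and 59 moved. These counts join higher and lower calls, so a change in their direction was not compared. For the B-lineage markers, the median log2 difference of Abl.2 over Abl.3 was 0.26, and -0.22 on summed allelic counts.

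Replicate numbers name library preparations and pair nothing by label. Deviations of same-numbered libraries correlated at 0.104, 0.187 and 0.161 in log2(TPM + 1) and at 0.00585, -0.0336 and 0.0158 in allele ratio. With the replicate block the abundance calls were 5213, 4608 and 5184, the differences of Itga4 and Itgav between Abl.2 and Abl.3 (adjusted p = 0.0276 and 0.0226) and of Itgav between Abl.2 and Abl.4 (0.0201) passed by limma, and no other call of the 6 genes changed. Low counts limit the share of Itgb3 in Abl.3 and leave Cd44 without a share in Abl.2.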

Other observations

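The abundance of plasma cell markers was read as a check of stage. Of 5, 4 were tested, and all 4 were higher in Abl.2 than in Abl.3 by limma with Benjamini-Hochberg adjustment, in a pair where 25.9% of all genes were. For Abl.3 over Abl.4, 3 were called, all lower, beside 26.8% of all genes (median log2 -0.77). Between Abl.2 and Abl.4 their adjusted p-values were 0.0885 to 0.975 by limma. Prdm1, which encodes Blimp-1, was at 15.2, 5.58 and 12.1 TPM in Abl.2, Abl.3 and Abl.4, and Sdc1, the plasma cell antigen CD138, at 9.90, 2.83 and 9.74 TPM. Xbp1 and Irf4 were at 64.1 and 73.8 TPM in Abl.2. After quantile normalisation 2 of the 4 were called, and 2 without any 1 library of Abl.2 or Abl.3.

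The nearest tested gene on the far side of Itgav, Ctnnd1, lies 875.7 kb away between lower coordinates and encodes a catenin. Its mean maternal shares in Abl.2, Abl.3 and Abl.4 were 1.00, 0.975 and 0.471, while Itgav stayed between 0.494 and 0.580 on average. Its allele ratio differed between Abl.2 and Abl.4 (adjusted p = 1.22e-04) and between Abl.3 and Abl.4 (adjusted p = 0.0032) by edgeR.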
